A study of Mus musculus with 16 samples.

Results

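Open chromatin was compared between haematopoietic progenitors of Flt3-ITD mice and of wild-type mice, by the presence of ATAC-seq peaks. Both groups belong to the set of samples whose titles begin with the age, called set 1 here, and each is represented by 1 deposited peak list. Overlapping peaks of both lists were merged on chromosomes 1 to 19, which gave 88484 regions, against 118981 regions over all 8 lists of the series. The pair takes up 4 of the 16 samples. The Flt3-ITD group of set 1 carried an internal tandem duplication in Flt3, and the wild-type group of set 1 did not. The other lists were used only to place the regions of this pair. Those carrying the duplication were Flt3-ITD/Runx1-het of set 1, Flt3-ITD of set 2 and NUP98-HOXD13/Flt3-ITD of set 2. Those without it were Runx1-het of set 1, wild type of set 2 and NUP98-HOXD13 of set 2, and wild type of set 2 had the same labelled genotype as wild type of set 1. All animals were 21 days old, and the labels describe all cells as progenitors of the multipotent (MPP) kind. The labels give neither the promoter nor the source of the Flt3-ITD allele, nor whether mice were pooled or the samples of a group came from separate animals. Each group had 2 samples but 1 list, so no value below has a replicate error and no test between genotypes was possible.

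Flt3 is a receptor tyrosine kinase at the surface of multipotent and lymphoid-primed progenitors, and its ligand supports their survival and their lymphoid and dendritic output. An internal tandem duplication in the juxtamembrane part of the receptor makes the kinase active without ligand, which feeds the STAT5, MAPK and PI3K pathways, and the mutation is common in acute myeloid leukaemia. In ATAC-seq the Tn5 transposase cuts accessible DNA, so a peak marks a stretch of open chromatin, often a promoter or an enhancer.

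A region was called gained when only the Flt3-ITD list held a peak there, lost when only the wild-type list did, and shared when both did. These words name list membership and no tested change. The rank of a region is the place of its best peak in its own list by the deposited −log10 p, with rank 1 the highest. The sequences below are the 250 bases before the start of 6 genes, in the direction of the gene, from the RefSeq promoter table of build GRCm38.p6. They show promoters in some of the regions named below, and were chosen after the values were seen. Capitals mark matches to the ETS motif GAGGAAG, read here on the opposite strand. These windows held no match on either strand to the STAT motif (TTCNNNGAA), the RUNX motif (TGTGGT) or the GATA motif (AGATAA). Matches to other motifs searched are not marked. Among them are 1 AP-1 match (TGANTCA) in Fam180a and 2 CTCF matches (AGGGGGC) in Fhl3. Tnfrsf23 holds 1 C/EBP match (TTGCNNAA) and 1 E-box match (CAGCTG). Fam180a (chr6:35326142-35326391, minus strand) and Fhl3, a LIM-domain protein (chr4:124700449-124700698, plus strand), had the best ranked gained regions that overlap such a window.
Fam180a: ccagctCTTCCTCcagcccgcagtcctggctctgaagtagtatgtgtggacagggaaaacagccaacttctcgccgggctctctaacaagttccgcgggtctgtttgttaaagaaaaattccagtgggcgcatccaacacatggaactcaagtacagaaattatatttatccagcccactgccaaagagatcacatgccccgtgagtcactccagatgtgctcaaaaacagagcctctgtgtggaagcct
Fhl3: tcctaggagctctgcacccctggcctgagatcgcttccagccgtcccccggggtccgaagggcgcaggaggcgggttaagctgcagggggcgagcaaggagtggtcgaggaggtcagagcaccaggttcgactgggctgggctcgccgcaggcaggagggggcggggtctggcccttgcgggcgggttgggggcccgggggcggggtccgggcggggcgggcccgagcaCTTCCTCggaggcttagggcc
Rasl11b, a Ras-like small GTPase (chr5:74195076-74195325, plus strand), and Tnfrsf23, a decoy receptor for the death ligand TRAIL (chr7:143685876-143686125, minus strand), had the best ranked lost regions that do.
Rasl11b: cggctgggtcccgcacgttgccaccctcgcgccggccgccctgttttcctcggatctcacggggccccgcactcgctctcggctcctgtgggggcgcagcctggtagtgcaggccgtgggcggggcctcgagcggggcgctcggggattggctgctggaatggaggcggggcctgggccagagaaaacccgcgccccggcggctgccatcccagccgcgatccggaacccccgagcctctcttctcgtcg
Tnfrsf23: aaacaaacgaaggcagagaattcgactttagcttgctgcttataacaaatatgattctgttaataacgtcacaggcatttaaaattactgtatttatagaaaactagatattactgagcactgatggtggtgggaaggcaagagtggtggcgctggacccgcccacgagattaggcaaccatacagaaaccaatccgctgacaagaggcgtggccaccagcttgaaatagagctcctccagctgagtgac
Elovl6, an enzyme that elongates fatty acids (chr3:129532136-129532385, plus strand), and Galnt9, which starts O-glycosylation (chr5:110603255-110603504, plus strand), had the shared promoter regions that stood highest in Flt3-ITD relative to wild type.
Elovl6: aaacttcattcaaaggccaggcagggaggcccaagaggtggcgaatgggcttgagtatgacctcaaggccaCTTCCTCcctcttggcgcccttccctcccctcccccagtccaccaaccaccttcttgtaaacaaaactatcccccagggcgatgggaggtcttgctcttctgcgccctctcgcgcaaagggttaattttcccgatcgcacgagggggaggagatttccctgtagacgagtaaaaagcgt
Galnt9: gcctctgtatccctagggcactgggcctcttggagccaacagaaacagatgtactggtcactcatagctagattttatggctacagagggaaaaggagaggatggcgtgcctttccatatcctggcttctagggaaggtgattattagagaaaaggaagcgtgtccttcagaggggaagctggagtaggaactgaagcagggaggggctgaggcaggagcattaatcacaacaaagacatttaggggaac

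The pair shared most of its open chromatin, and most regions held by 1 list were weak ones. Of the 88484 regions, 16807 were gained (19%), 9254 were lost (10.5%) and 62423 were shared. Gained regions made up 21.2% of the Flt3-ITD regions, and lost regions 12.9% of the wild-type regions. The Flt3-ITD list was the longer one, with 121180 peaks against 110352 in the wild-type list, and covered 48.3 Mb against 44.3 Mb. The median −log10 p of a peak was 35.3 in the Flt3-ITD list and 33.5 in the wild-type list, both values being the authors'. The other 6 lists held between 81961 and 134913 peaks, so this pair sits inside the range of the series. Read depth was unknown, so its part in the difference in list length was not tested.

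Gained and lost regions were narrower and ranked lower than shared ones. The median width was 380 bp for gained, 348 bp for lost and 653 bp for shared regions. The median region stood at 67.1% of the way down its own list when gained, at 72.3% when lost and at 29.3% in the Flt3-ITD list when shared. Among regions that could be placed against a listed gene start, 6.44% of the gained and 7.64% of the lost lay within 1000 bp of one, against 25% of the shared, so regions in 1 list lay mostly away from promoters. Of all regions, 92.2% had a protein-coding gene within 100 kb, and the gene given for a region is only the closest one.

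Presence in the other list followed rank closely. In the top 10% of its list, 0.0533% of the Flt3-ITD regions had no wild-type peak, and 0.0397% of the wild-type regions had no Flt3-ITD peak. Between 30% and 40% of the way down, the shares were 8.06% for Flt3-ITD and 1.40% for wild type. In the last 10% they were 98.1% and 92.8%, so the share was higher for Flt3-ITD in each of the 10 steps. In the top 25% of their own list, called strong here, 119 regions were gained (0.134% of all regions) and 10 were lost (0.0113%). The last strong gained region, in Atox1, had rank 30146 and the first one outside the limit, nearest to Pcdh1, rank 30318. On the lost side these were the regions nearest to Lama4, at rank 27483, and Atp2b2, at rank 27609.

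**Figure D1:**
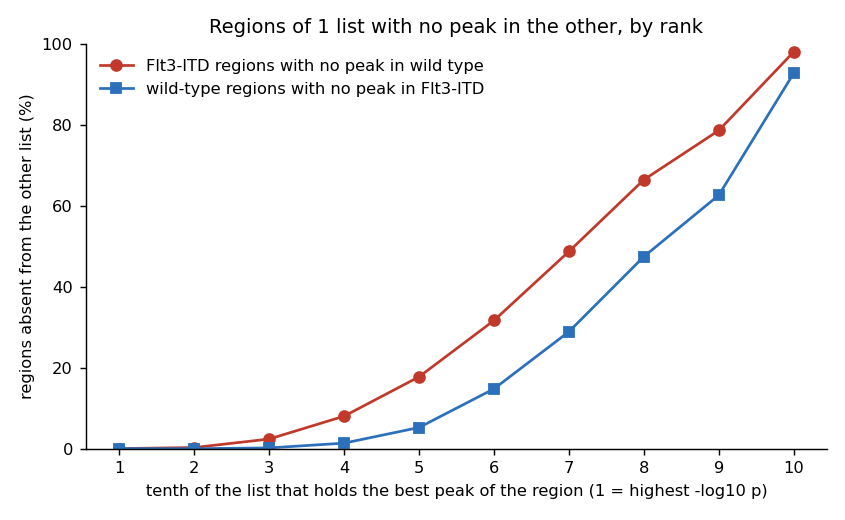
Share of regions with no peak in the other list (y axis, %) by the step of 10% of the own list that holds the best peak (x axis, the highest −log10 p at the left), for Flt3-ITD (red circles) and wild type (blue squares). The shares reach 2.41% (Flt3-ITD) and 0.217% (wild type) between 20% and 30% of the list and 98.1% and 92.8% in the last step, and the Flt3-ITD share lies above the wild-type share in every step.

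Taking equal numbers of peaks, the 110352 with the highest −log10 p of each list, changed little. It gave 16568 gained regions (18.8%), 9257 lost (10.5%) and 62420 shared. Strong gained regions then numbered 74 (0.0839%), the limit lying higher in the Flt3-ITD list, and strong lost ones 10 (0.0113%). Among the top 20000 peaks of each list, 2256 regions were gained and 1852 were lost, but 99.2% of these gained and 99.7% of these lost regions had a weaker peak further down the other full list. Only 17 of these gained and 5 of these lost regions were absent from the other list altogether. Among the top 60000, 2647 of 6596 gained and 1012 of 5098 lost regions were wholly absent. Against the wild type of set 2, the Flt3-ITD list of set 1 had 10567 gained and 19215 lost regions, 40 of them strong gained and 121 strong lost, so gained regions outnumbered lost ones only against the wild type of its own set.

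The leading gained regions fell into some that followed the duplication over the lists and some that did not. The first was 232 bp wide on chromosome 1 (24613000 to 24613231), nearest to Col19a1, a collagen gene. It had rank 98 in the Flt3-ITD list with a −log10 p of 924, no peak in wild type of set 1, rank 60 in Flt3-ITD/Runx1-het, rank 226 in Runx1-het and rank 1 in all 4 lists of set 2, wild type included. Wild type of set 1 was thus the only list without it, and no list of regions to exclude was used here. The second lay in the body of Ncam2, a neural cell adhesion molecule (chromosome 16, 81365878 to 81366393). It had rank 4345 in Flt3-ITD, rank 4888 in Flt3-ITD/Runx1-het, rank 7486 in Flt3-ITD of set 2 and rank 14830 in NUP98-HOXD13/Flt3-ITD. Among the lists without the duplication it had rank 31830 in Runx1-het, rank 41842 in wild type of set 2 and no peak in wild type of set 1 or NUP98-HOXD13. The region was picked by the set-1 pair. Outside that pair, each list with Flt3-ITD ranked it above every list without it. As a share of list length these stood at 4.10% to 11.8% with the duplication, against 25.5% or lower down without it.

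Dpp4, a cell-surface peptidase, showed the same order at a gene-body region on chromosome 2 (62331869 to 62332410). Its rank was 12032 in Flt3-ITD, 8529 in Flt3-ITD/Runx1-het, 21862 in Flt3-ITD of set 2 and 29254 in NUP98-HOXD13/Flt3-ITD, against 73663 in Runx1-het, 77742 in wild type of set 2 and no peak in the other two. The region in Pclo, a presynaptic scaffold (chromosome 5, 14758541 to 14758978), had rank 12205 in Flt3-ITD, 7334 in Flt3-ITD/Runx1-het and 8045 in Flt3-ITD of set 2, against 94231 in wild type of set 2. It was absent from NUP98-HOXD13/Flt3-ITD as well as from the 3 remaining lists without Flt3-ITD. The region nearest to Col6a3, a collagen VI chain (chromosome 1, 90696982 to 90697627), stood in 3 lists, all with Flt3-ITD, at rank 19868 in Flt3-ITD, 11846 in Flt3-ITD/Runx1-het and 9838 in Flt3-ITD of set 2. At Ptprd, a receptor tyrosine phosphatase, the region had rank 16008 in Flt3-ITD and was in all 4 lists with the duplication, and the only list without it that held a peak was NUP98-HOXD13, at rank 43988.

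Several other leading gained regions were present whatever the genotype. The regions nearest to Klk4 (a kallikrein-type serine protease), Stard6 (a lipid-binding START protein) and Fbxo40 (an F-box protein) had ranks 18423, 19149 and 19279 in Flt3-ITD and were present in every list other than wild type of set 1. That in Rbfox1, a splicing regulator, had rank 18445 in Flt3-ITD and elsewhere a single peak at rank 52130 in Flt3-ITD of set 2, so no list without the duplication held it. Of all 119 strong gained regions, 62 were in 7 lists, so that wild type of set 1 was the only list without them. At the other end, 4 occurred with the duplication in each of the 4 lists and never without it. These lay in Syt1, the calcium sensor of synaptic vesicle release (chromosome 10, 108991257 to 108991863, rank 23164 in Flt3-ITD), and at 3 places with no protein-coding gene within 100 kb. One of the 3, on chromosome 16 (81756833 to 81757348), lay 132542 bp beyond the nearest gene and had rank 9709 in Flt3-ITD, 11977 in Flt3-ITD/Runx1-het, 9029 in Flt3-ITD of set 2 and 31279 in NUP98-HOXD13/Flt3-ITD.

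The promoter regions among the strong gained ones were of both kinds. The best ranked lay 158 bp from a listed start at the odorant receptor gene Olfr1258, chosen after its values were seen, at rank 22485 in Flt3-ITD, 14767 in Flt3-ITD/Runx1-het, 16019 in Flt3-ITD of set 2 and 18704 in NUP98-HOXD13/Flt3-ITD, against 47653 in NUP98-HOXD13. It had no peak in the other lists without the duplication. The region at Fam180a (chromosome 6, 35326104 to 35326704) had rank 23582 in Flt3-ITD and 44063 in Flt3-ITD/Runx1-het, and no peak in the other 6 lists. The region at Fhl3 (chromosome 4, 124700276 to 124700910) had rank 27364 in Flt3-ITD and was in 7 lists, at ranks from 20285 to 34540. The ETS match printed in capitals lies at −244 to −238 from the start of Fam180a and at −21 to −15 from that of Fhl3, both inside the peaks. A match is a description of these letters and not a shown binding site.

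The 10 strong lost regions had peaks in nearly all other lists, those with Flt3-ITD included. The region at the promoter of Rasl11b (chromosome 5, 74194862 to 74195728) had no peak in Flt3-ITD of set 1 and rank 3883 in wild type of set 1. In the other lists with Flt3-ITD it had rank 4429 in Flt3-ITD/Runx1-het, 7900 in Flt3-ITD of set 2 and 3468 in NUP98-HOXD13/Flt3-ITD, and in those without it 3816 in Runx1-het, 6233 in wild type of set 2 and 3894 in NUP98-HOXD13. Flt3-ITD of set 1 was thus the only list without it. The regions in Plcl1, a phospholipase C-like protein (rank 5802 in wild type), nearest to Serp1, a stress-associated protein of the endoplasmic reticulum (rank 7220), and nearest to Car8, a carbonic anhydrase-related protein (rank 8415), were likewise in all 6 further lists, with ranks there from 2618 to 13509. The promoter of Tnfrsf23 (chromosome 7, 143685432 to 143686074) had rank 14501 in wild type, and ranks from 6517 to 56829 in the 6 further lists. Of the 10 lost regions, 7 were in 7 lists and 3 in 6. Those absent from 1 further list with Flt3-ITD lay nearest to Cadps2, which primes secretory vesicles (missing in NUP98-HOXD13/Flt3-ITD), Susd1 (missing in Flt3-ITD of set 2) and Lama4, a laminin chain (missing in Flt3-ITD/Runx1-het).

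**Figure D2:**
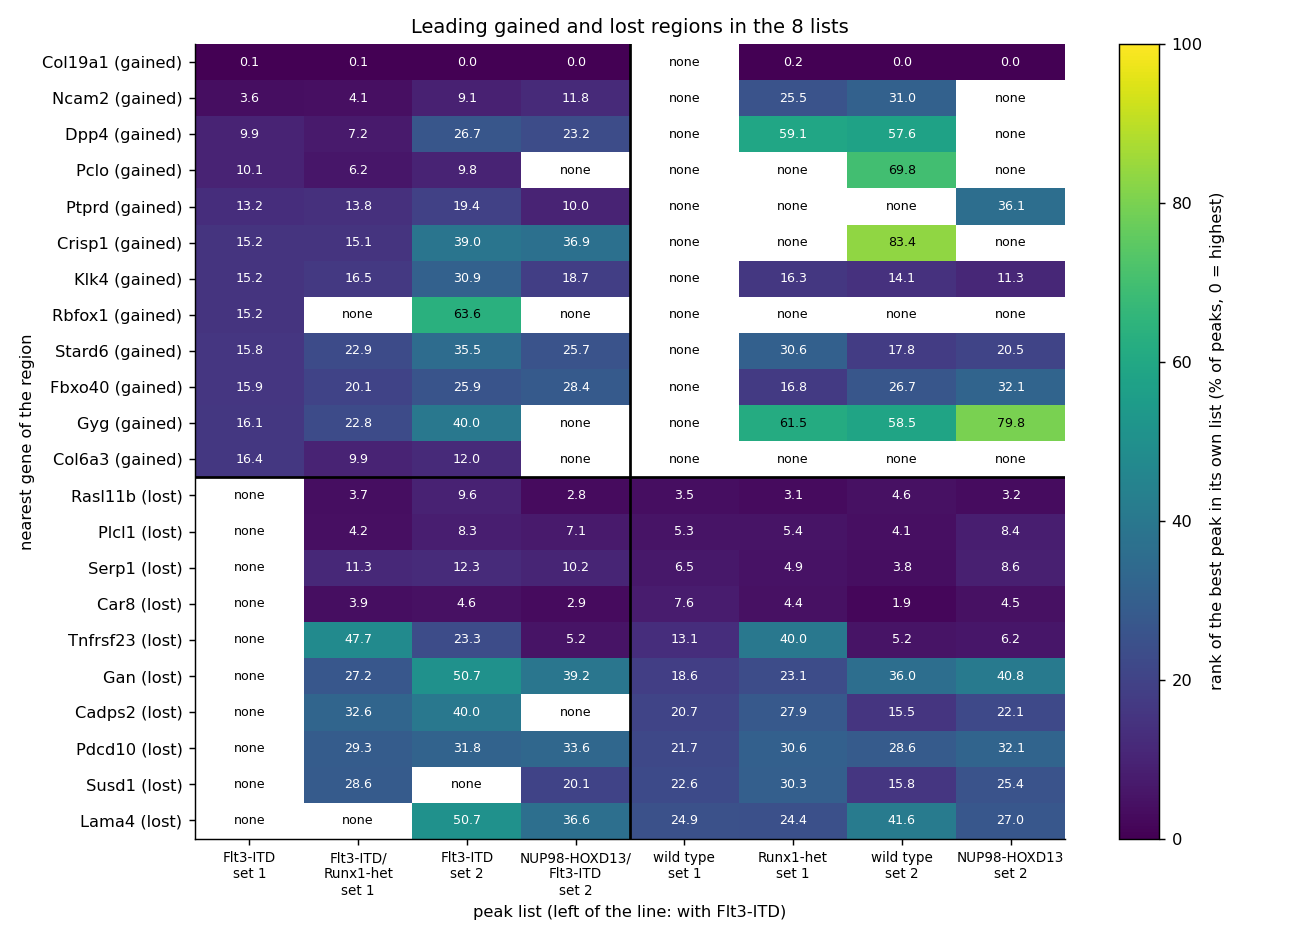
Rank of the best peak, as % of the peaks of its own list (colour and printed value, 0 the highest), for the 12 leading gained and the 10 strong lost regions (rows, by nearest gene) in the 8 lists (columns, the 4 with Flt3-ITD left of the line); none means no peak. Outside the set-1 pair that defined them, several gained regions, such as Ncam2 and Dpp4, rank higher in the lists with Flt3-ITD than in those without. The lost regions are filled in nearly every column other than Flt3-ITD of set 1.

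Over all regions, presence in the other lists followed the duplication in part. Of the gained regions 55.4% and of the lost regions 45.6% had a peak in Flt3-ITD/Runx1-het, and in Flt3-ITD of set 2 the shares were 25% and 20.2%. In Runx1-het the order was the other way round, with 51.9% of the gained and 56.1% of the lost regions present. In wild type of set 2 it was 57.5% of the gained and 60.3% of the lost, and in NUP98-HOXD13 42.2% and 47.2%. The list that went against its genotype was NUP98-HOXD13/Flt3-ITD, with 42.6% of the gained and 44.5% of the lost regions. Of the shared regions, 75.5% to 94.7% had a peak in these lists. When the 81961 peaks with the highest −log10 p were taken from each other list, 40.2% of the gained and 28.9% of the lost regions were in Flt3-ITD/Runx1-het. With this choice the gained and lost shares were 31.4% and 31.8% in NUP98-HOXD13/Flt3-ITD, 32.2% and 34.9% in Runx1-het, 33.8% and 34.5% in wild type of set 2 and 30.1% and 33.6% in NUP98-HOXD13.

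**Figure D3:**
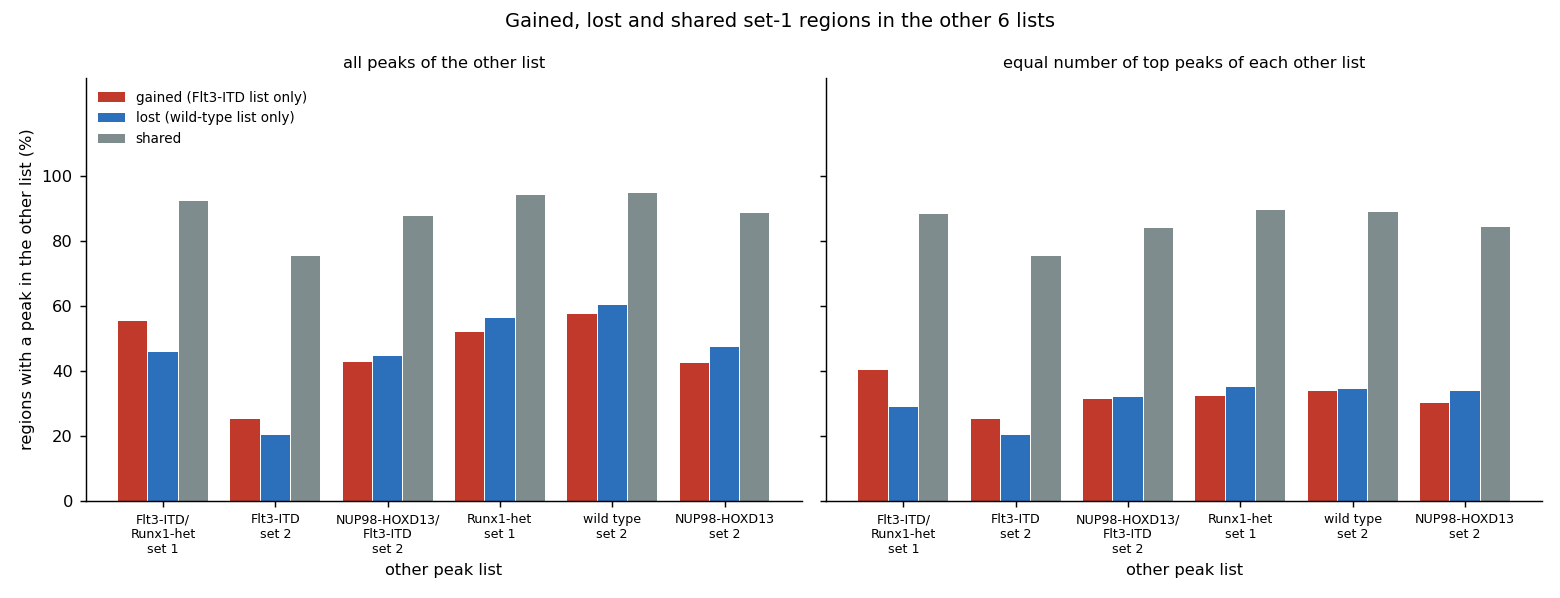
Share of gained (red), lost (blue) and shared (grey) regions with a peak in each of the other 6 lists (y axis, %), with all peaks of that list (left panel) and with its 81961 top peaks (right panel). The gained share exceeds the lost share in Flt3-ITD/Runx1-het and in Flt3-ITD of set 2 and lies below it in the other 4 lists.

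With all peaks, in a band of better ranked regions the gap between gained and lost was wider in most lists, but not in Flt3-ITD/Runx1-het. For regions between 25% and 50% of the way down their own list, 88.5% of the gained and 79.7% of the lost were in Flt3-ITD/Runx1-het, and 52.2% of the gained and 45.0% of the lost in Flt3-ITD of set 2. In Runx1-het 79.1% of the gained and 93.3% of the lost were present, and in NUP98-HOXD13 64.6% and 85.5%. NUP98-HOXD13/Flt3-ITD again stood with the lists without the duplication, at 68.3% of the gained and 80.3% of the lost. Among the strong regions, 83.2% of the 119 gained and 90% of the 10 lost were in Flt3-ITD of set 2, so there the order was turned. With equal numbers of peaks, 114 gained regions had a peak in each of the 3 other lists carrying the duplication and none in the 3 others, and 117 had the reverse pattern. Of the lost regions, 112 were absent from all 3 other lists with Flt3-ITD and present in all 3 without, and 13 had the reverse. With all peaks, 72 gained regions followed the duplication in this way and 267 went against it, and 247 lost regions followed it and 6 went against it. The lists also differ in set and in length, and Flt3-ITD of set 2 was the shortest, and the part of list length in these counts was not tested.

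Of the 247 lost regions that were absent from every list with Flt3-ITD and present in every list without, 24 lay at a listed promoter (9.72%). Of all lost regions 5.37% did. The median of the 247 stood at 70.7% of the way down the wild-type list, so nearly all were weak. The best ranked lay in Pdcd10, a protein of vascular junctions (rank 47830 in wild type), nearest to Ipo8, an importin (rank 49463), and in Abcc9, a channel subunit of the sulphonylurea receptor type (rank 50783). A different, strong lost region nearest to Pdcd10 was in every list other than Flt3-ITD of set 1. Promoters among the 247 included Ankrd22 (rank 51490) and Izumo1r (rank 52371). Genes of blood cells among them were Etv6, an ETS repressor needed by stem cells, with a region in its body (rank 55194 in wild type, 76371 in Runx1-het, 90565 in wild type of set 2 and 78269 in NUP98-HOXD13), Ifi44, an interferon-induced gene (rank 55209), and Ly75, the dendritic-cell receptor DEC-205 (rank 58801). They were picked for what they are known for, after the values were seen. Etv6 had 6 gained and 7 lost of 44 regions in all, and Ifi44 1 gained and 2 lost of 6. Of the 72 gained regions that followed the duplication in the same way, 3 lay at a listed promoter (4.17%). Of all gained regions 4.52% did.

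Several genes held many gained regions and no lost one. Of the 16507 protein-coding genes nearest to some region, 7798 had a gained one (47.2%) and 5293 a lost one (32.1%), so a gene with 1 of either is common. With equal numbers of peaks the shares were 47% and 32.1%. Ncam2 and Jazf1, a zinc-finger gene, had 10 gained and 0 lost regions each. Ptprg, a receptor tyrosine phosphatase, Mllt3, which supports self-renewal in human stem cells, and Hivep3, a large zinc-finger gene, had 9 gained each. Cdh13 (a cadherin), Lyn (a Src-family kinase of myeloid and B cells) and Inpp4b (a lipid phosphatase of the PI3K pathway) had 8 gained each. Most of these genes are long, from 114 kb for Lyn to 1185 kb for Cdh13, and a long gene is nearest to more regions.

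Ncam2 held the best ranked gained region of these 8 genes. Of its 10 gained regions, 8 had a peak in Flt3-ITD/Runx1-het, 4 in Flt3-ITD of set 2 and 4 in NUP98-HOXD13/Flt3-ITD, against 4 in Runx1-het, 3 in wild type of set 2 and 2 in NUP98-HOXD13. Besides the leading one, a region at 81249096 to 81249661 had rank 16735 in Flt3-ITD and 17216 in Flt3-ITD/Runx1-het, and rank 80277 in NUP98-HOXD13, the only list without the duplication that held it. Counting all merged peaks from 160 kb before to 160 kb after the gene, Flt3-ITD had 19, Flt3-ITD/Runx1-het 18, and both set-2 lists with the duplication 10 each, against 7 in wild type of set 1, 12 in Runx1-het, 11 in wild type of set 2 and 8 in NUP98-HOXD13. At Mllt3, by contrast, the best gained region had rank 55700, and of 9 gained regions 6 were in Flt3-ITD/Runx1-het, 1 in Flt3-ITD of set 2 and 6 in wild type of set 2. At Lyn the best had rank 61262, and 5 of 8 gained regions were in Flt3-ITD/Runx1-het and 4 in wild type of set 2.

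On the lost side the counts per gene were smaller. Efna5, an ephrin ligand, had 6 lost and 0 gained regions. Cbfa2t3, a corepressor of erythroid cells and stem cells, Itprid2, Msc (a basic helix-loop-helix repressor), Cdh17 (a cadherin) and Mybpc1 (a muscle protein) had 5 lost each, and Hao1, a peroxisomal oxidase, and Ntng1, a netrin, 4 each. All 6 lost regions of Efna5 had a peak in wild type of set 2, 4 in NUP98-HOXD13/Flt3-ITD, 3 in NUP98-HOXD13, and 2 each in Flt3-ITD/Runx1-het, Flt3-ITD of set 2 and Runx1-het. Their best rank in wild type of set 1 was 69521, so all were weak there. The best of Cbfa2t3 had rank 47735 in wild type and was in 7 lists.

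**Figure D4:**
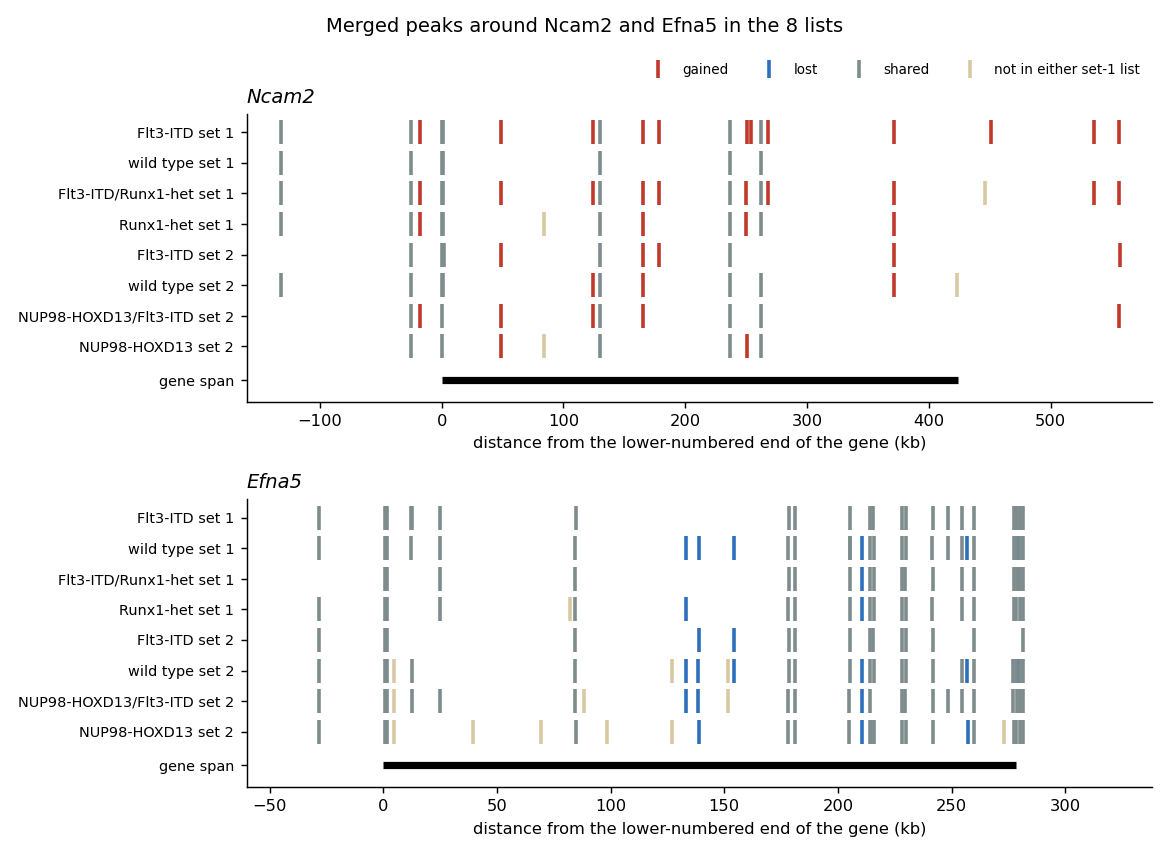
Merged peaks (ticks) in the 8 lists around Ncam2 and Efna5, by distance from the lower-numbered end of the gene (x axis, kb), coloured by their state in the set-1 pair; the black bar is the gene. Flt3-ITD of set 1 and Flt3-ITD/Runx1-het have 19 and 18 ticks around Ncam2 and wild type of set 1 has 7, while the 6 lost regions of Efna5, absent from Flt3-ITD of set 1 by definition, are all present in wild type of set 2.

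Gene lists were read as shares of the regions nearest to their members. Over all protein-coding genes 18.5% of the regions were gained and 10.2% were lost. Genes of Flt3 signalling stood close to that, with 38 gained and 23 lost of 180 regions (21.1% and 12.8%). Of the 15 members, 12 had a gained region (80%) and 10 a lost one (66.7%), against 47.2% and 32.1% of all genes, which had 81595 regions over 16507 genes. The best gained ones lay nearest to Grb2, an adaptor of activated receptors (rank 37659 in Flt3-ITD, in every list other than wild type of set 1), and Inpp5d, the phosphatase SHIP1 (rank 49935). The best lost ones lay nearest to Pik3r1, the regulatory subunit of PI3K (rank 51841 in wild type), and at the promoter of the kinase gene Syk (rank 58062). The Syk region had rank 12174 in NUP98-HOXD13/Flt3-ITD, against 15350 in Runx1-het. In all, Pik3r1 had 4 gained and 6 lost regions, Syk 4 and 5, and Inpp5d 2 and 1.

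Known targets of STAT5 had 36 gained and 16 lost of 183 regions (19.7% and 8.74%). The best ranked of 4 gained regions of Ccnd3, a D-type cyclin, had rank 32552 in Flt3-ITD and was in every list other than wild type of set 1. That in Bcl2, which blocks apoptosis, the best ranked of 7, had rank 40123 in Flt3-ITD. As a share of list length it stood at 33.1% in Flt3-ITD, 21.9% in Flt3-ITD/Runx1-het, 42.1% in Flt3-ITD of set 2 and 47.9% in NUP98-HOXD13/Flt3-ITD, against 39.1% in Runx1-het, 41.1% in wild type of set 2 and 64.4% in NUP98-HOXD13. The groups of lists overlapped. The gained region of Osm, a cytokine, had rank 41485 in Flt3-ITD, 28054 in Flt3-ITD/Runx1-het, 41151 in Flt3-ITD of set 2 and 44809 in NUP98-HOXD13/Flt3-ITD, and elsewhere a single peak at rank 91554 in Runx1-het. As a share of list length the other lists with the duplication stood at 23.5% to 50.2% and Runx1-het at 73.4%, so each of them ranked it higher. Osm also had 1 lost region, at rank 96025 in wild type. Socs2, a feedback inhibitor of cytokine receptors, had 2 gained and 4 lost regions, and the best ranked lost one had rank 66573 in wild type and was in 1 other list, wild type of set 2, at rank 89168. Feedback genes of the MAPK pathway had 39 gained and 20 lost of 214 regions (18.2% and 9.35%), led by Dusp5 (rank 30461 in Flt3-ITD) among the gained and Etv4 (rank 55209 in wild type) and Dusp6 (rank 58801) among the lost. In all, Dusp5 had 4 gained and 2 lost regions, Etv4 1 and 1, and Dusp6 2 and 3.

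Interferon-response genes, a subject of the study by its title, had 22 gained and 16 lost of 127 regions (17.3% and 12.6%). Of the 37 members with a region, 16 had a gained and 14 a lost one (43.2% and 37.8%, against 47.2% and 32.1% of all genes). The promoter of Oas3, an antiviral synthetase, was gained at rank 40094 and was in every list other than wild type of set 1. The best ranked lost regions lay nearest to Ifi44 (rank 55209) and to Dhx58, a regulator of antiviral RNA sensing (rank 65083). That of Ifi44 was absent from all 4 lists with Flt3-ITD and present in all 4 without, while that of Dhx58 was in every list other than Flt3-ITD of set 1. Dhx58 also had 2 gained regions, the better ranked at rank 49524 in Flt3-ITD, and Ifi44 had 1 gained at rank 69739. Zbp1, a nucleic-acid sensor named after its values were seen, had a lost region with the pattern of the lost one of Ifi44 (rank 70555). The MHC class I list had 6 gained and 3 lost of 39 regions.

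Stem cell self-renewal genes had 51 gained and 25 lost of 208 regions (24.5% and 12%), with the best gained region in Mecom (rank 38230), a stem-cell transcription factor, and the best lost one nearest to Meis1 (rank 45898 in wild type). Mecom had 9 gained and 6 lost regions in all, and Meis1 4 and 8. Lymphoid priming genes had 50 gained and 38 lost of 262 (19.1% and 14.5%), among them 1 strong gained region nearest to Sox4, a transcription factor of early lymphoid cells (rank 29536 in Flt3-ITD, in 7 lists). A promoter region of Ikzf1, the gene of the lymphoid regulator Ikaros, was lost at rank 52792 in wild type and was in 7 lists. Ikzf1 had 5 gained and 6 lost regions in all, and Sox4 3 and 2. Dendritic cell genes had 23 gained and 21 lost of 158 (14.6% and 13.3%), and 8 of 17 members had a gained region (47.1%) and 11 a lost one (64.7%), against 47.2% and 32.1% of all genes. These 17 members had more regions per gene than all genes, which had 81595 regions over 16507 genes. The dendritic-cell factor Zbtb46 had the better ranked of its 2 lost regions at rank 48759 in wild type, with peaks in Runx1-het (53895), wild type of set 2 (39487) and NUP98-HOXD13/Flt3-ITD (54093). Granulocyte-monocyte genes had 29 gained and 14 lost of 148 (19.6% and 9.46%), and megakaryocyte-erythroid genes 19 and 12 of 122 (15.6% and 9.84%).

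The highest gained shares were those of the T and NK cell, B cell and control lists. T and NK cell genes had 32 gained and 8 lost of 102 regions (31.4% and 7.84%). Il2rb, an interleukin receptor chain, had 3 gained and 1 lost regions, and the best ranked gained one had rank 42681 in Flt3-ITD, 57616 in NUP98-HOXD13/Flt3-ITD and 48532 in Flt3-ITD/Runx1-het, against 73009 in wild type of set 2. B cell genes had 19 gained and 8 lost of 62 (30.6% and 12.9%), and their best gained region, in the B-lineage factor Ebf1 (rank 33795), was in 7 lists. Ebf1 had 9 gained and 5 lost regions in all. The control list of hepatocyte and neuron genes had a similar gained share, 10 of 33 (30.3%), and it has no role in blood cells. Stroma and endothelium genes had 35 gained and 15 lost of 145 (24.1% and 10.3%) and mast, basophil and eosinophil genes 13 and 6 of 54 (24.1% and 11.1%).

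HOX and MEIS genes had 26 gained and 21 lost of 112 regions (23.2% and 18.8%), which was the highest lost share of the 20 lists. Meis1 alone held 8 of these lost regions, among 27 regions of its own. The promoter of Hoxa11 was gained at rank 39498 and was in every list other than wild type of set 1. Fetal and neonatal progenitor genes had 21 gained and 11 lost of 95 (22.1% and 11.6%), with 1 strong gained region in Igf2bp3, a fetal RNA-binding protein (rank 27281 in Flt3-ITD, 17421 in Flt3-ITD/Runx1-het, 19839 in wild type of set 2). Haematopoietic transcription factors had 87 gained and 54 lost of 450 (19.3% and 12%), with 1 strong gained region nearest to Lmo2, a cofactor of stem and erythroid cells (rank 25902, in 7 lists). Lmo2 had 4 gained and 3 lost regions in all. Housekeeping genes had 6 gained and 7 lost of 52 (11.5% and 13.5%).

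**Figure D5:**
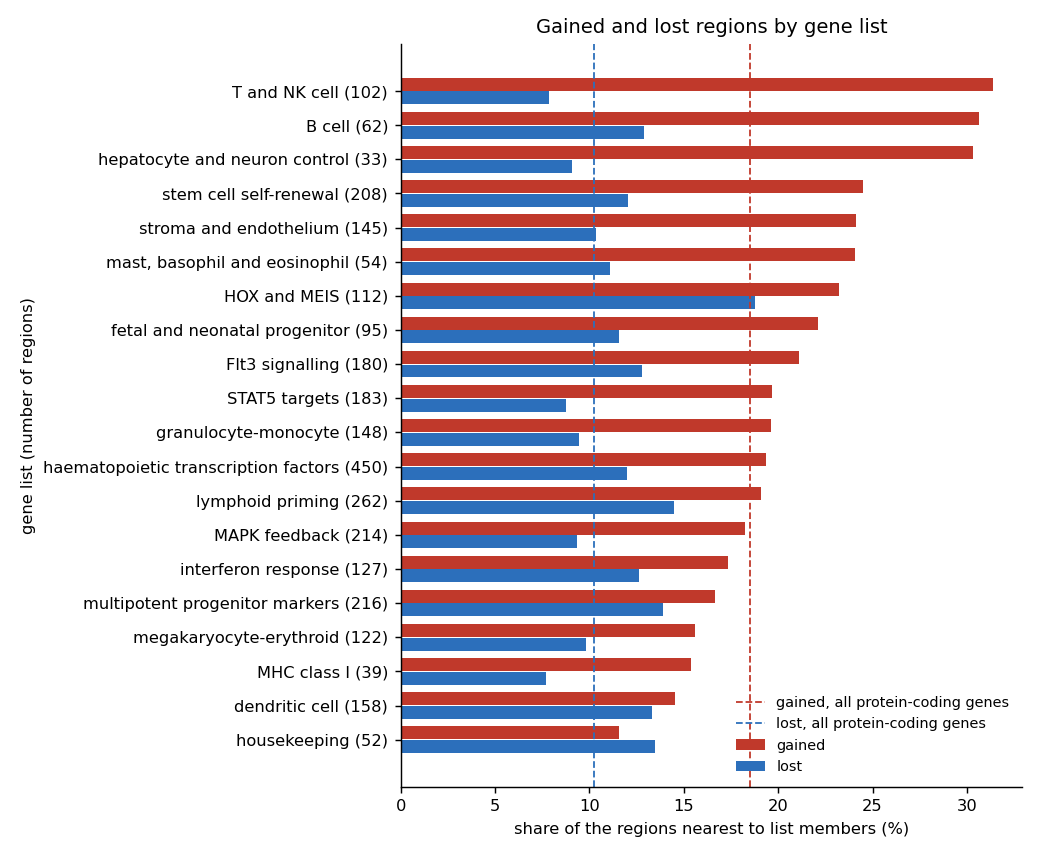
Share of regions nearest to the members of each gene list (rows, number of regions in brackets) that were gained (red) or lost (blue) (x axis, %); dashed lines give the shares over all protein-coding genes, 18.5% gained and 10.2% lost. T and NK, B cell and the hepatocyte and neuron control lists lie highest for gained regions, and housekeeping genes are the only list with more lost than gained.

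Markers of the labelled cells were open in both lists, and so were some markers of other cells. A marker counted as open when a peak lay within 500 bp of a listed start, or in the gene span where no start was listed. Of the 15 multipotent progenitor markers, 14 were open in Flt3-ITD and 14 in wild type, Ly6a being the exception in both. Open granulocyte-monocyte markers numbered 18 in Flt3-ITD and 16 in wild type (of 26), those of mast cells, basophils and eosinophils 8 and 6 (of 16), and those of B cells 8 and 7 (of 15). T and NK markers open were 13 in Flt3-ITD and 12 in wild type (of 22). Dendritic cell markers were 11 and 12 (of 17), megakaryocyte-erythroid 13 and 13 (of 21) and stroma and endothelium 14 and 14 (of 20). Of the 11 hepatocyte and neuron genes 2 were open in both lists, Snap25 and Neurod1. A different mix of cells and a change within cells cannot be told apart in these bulk samples, and the part of the marker differences in the gained regions was not tested.

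Regions in both lists differed in rank. With equal numbers of peaks, the ranks of the 62420 shared regions had a Spearman correlation of 0.921 across regions, given as a description, since regions of 1 library share its depth and base composition. The median difference in either direction was 5259 places, 49.3% of regions ranked higher in Flt3-ITD, and 2709 stood over 20000 places higher in Flt3-ITD while 2954 stood over 20000 places lower. The largest difference was at the promoter of Elovl6 (chromosome 3, 129532093 to 129532640), with rank 44829 in Flt3-ITD and 110092 in wild type, and a −log10 p of 53.5 against 1.48. Its rank was 37669 in Flt3-ITD/Runx1-het, 45695 in NUP98-HOXD13/Flt3-ITD, 47946 in Runx1-het, 50453 in wild type of set 2 and 48421 in NUP98-HOXD13, with no peak in Flt3-ITD of set 2. Wild type of set 1 thus ranked it lowest among the 7 lists that held it. Galnt9 (chromosome 5, 110602899 to 110603617) had rank 32366 in Flt3-ITD and 93324 in wild type, and 43631, 33957 and 38519 in the 3 other lists with Flt3-ITD, against 59139 in Runx1-het, 85495 in wild type of set 2 and 81410 in NUP98-HOXD13. The order in the set-1 pair was fixed by the choice of this promoter. Outside that pair it ranked higher in each list with the duplication than in any list without. As a share of list length these stood at 30.6% to 41.4% against 47.4% to 66.8%.

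Further regions high in Flt3-ITD lay nearest to Tmem106b (61482 places higher), Dlg2, a synaptic scaffold (61190), Auts2 (60830), Bmpr1b, a receptor for bone morphogenetic proteins (57946), Rpp25 (55815) and Slc28a3, a nucleoside transporter (55210). At Auts2 the ranks were 24198 in Flt3-ITD and 85028 in wild type, and 18236 in Flt3-ITD/Runx1-het with no peak in Runx1-het. They were 31196 in Flt3-ITD of set 2 against 77742 in wild type of set 2, but 98843 in NUP98-HOXD13/Flt3-ITD against 90661 in NUP98-HOXD13. The Dlg2 region stood lower with the duplication in every other pair, as at 74164 in Flt3-ITD/Runx1-het against 49718 in Runx1-het. That of Tmem106b had 36152 against 66531 there, but 50355 in Flt3-ITD of set 2 against 36015 in wild type of set 2. Those low in Flt3-ITD were led by the region in Sdk2, a synaptic adhesion molecule, at rank 98685 in Flt3-ITD and 44767 in wild type, followed by regions nearest to Wdr60, Rmdn2, Vmn2r29, Nudt14, Tacc1, Ccng1 and Tspan2. The list of Flt3-ITD of set 2 held none of these 8. They stood at 73.2% to 82.3% of the way down the Flt3-ITD list of set 1. Of all shared regions between 50% and 75% of the way down, Flt3-ITD of set 2 held 40.4%, and of those lower down 19.7%. The part of its short length was not tested. Genes were also taken by the median over their shared regions, a choice made after the values were seen. Among the 3989 genes with at least 5 shared regions, it stood highest in Flt3-ITD for Sorcs3, a sorting receptor (26907 places higher over 5 regions, all 5 higher), Ptprd (22175 over 10 regions, 7 higher) and Dpp10 (21590 over 5 regions). It stood lowest for Adipoq, the fat-cell hormone adiponectin (−24414 over 5 regions, 0 higher) and Fscn1, an actin-bundling protein (−20457 over 5 regions, 1 higher). The median over all regions with a gene was −100 places.

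The rank differences recurred in part in pairs of lists that share no list with this one. The 500 regions that stood highest in Flt3-ITD relative to wild type were compared by rank among the 81961 top peaks of each list. Where both lists of a pair held them, their median was 13504 places higher in Flt3-ITD/Runx1-het than in Runx1-het (239 of 305 regions higher), and 10844 places higher in Flt3-ITD of set 2 than in wild type of set 2 (194 of 262). In NUP98-HOXD13/Flt3-ITD against NUP98-HOXD13 it was 1376 places higher (108 of 195). The median over all shared regions was 26, 98 and 37 places in these pairs. The 500 regions that stood lowest in Flt3-ITD gave −6123 places in the first pair (89 of 258 higher), 736 in the second (111 of 209 higher) and −2329 in the third (125 of 293 higher). In the second pair their median was thus not lower with the duplication. Of these 500, 28 were only in Flt3-ITD of set 2 and 175 only in wild type of set 2, but over all shared regions the counts were 2070 and 10377, a similar balance. The first pair had 34 only in Flt3-ITD/Runx1-het and 145 only in Runx1-het, and 3122 and 3832 over all shared regions.

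Promoter sequence was read in 20084 windows of 250 bases before a listed start, of which 378 overlapped a gained, 209 a lost and 12033 a shared region. The median GC content was 57.6% in gained, 58% in lost and 61.2% in shared windows, and 46.8% in the 7464 windows with no region. The STAT motif TTCNNNGAA was in 9.52% of the gained windows, 5.74% of the lost, 5.39% of the shared and 6.66% of all. In windows with no region its share was 8.57%, near that of the gained ones. The ETS motif GAGGAAG was in 12.7% of the gained, 15.3% of the lost, 10.8% of the shared and 10.3% of all. The RUNX motif (TGTGGT) was in 11.4%, 10%, 10.2% and 12.2% of the same groups, and the GATA motif (AGATAA) in 7.67%, 6.70%, 4.87% and 8.72%. In the same order the shares were 16.1%, 19.6%, 15.6% and 11.8% for CTCF and 15.3%, 16.3%, 11.5% and 12.2% for the E-box. They were 9.79%, 12.4%, 6.82% and 9.19% for C/EBP, and 7.67%, 6.22%, 3.73% and 6.18% for AP-1. A motif of interferon regulatory factors (IRF) had 3.17%, 5.74%, 2.51% and 2.97%, and a HOX motif 2.38%, 1.91%, 0.839% and 2.51%. Both strands were searched. STAT matches lay in 36 gained and 12 lost windows and IRF matches in 12 of each, so the shares rest on few promoters. Most gained and lost regions lay outside such windows, and their sequence was not read here.

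Flt3 itself, on chromosome 5, had 9 regions nearest to it, of which 8 were shared and 1 was lost. Its promoter region (147399913 to 147400721) had rank 534 in Flt3-ITD and 438 in wild type, and ranks from 399 to 1728 in the other 6 lists. The lost region (147354333 to 147354598) was a weak one at rank 84167 in wild type, with 1 further peak in Runx1-het at rank 70085. A region at 147388738 to 147389431 stood at rank 46175 in Flt3-ITD and 78023 in wild type, and at 62034 in Flt3-ITD/Runx1-het against 92029 in Runx1-het, with no peak in Flt3-ITD of set 2 and rank 109203 in wild type of set 2. Peaks do not read the duplication, so they are no check of the genotype. The 5 highest regions of Flt3-ITD, at Pitrm1, Hjurp, Cggbp1, Msmo1 and Uggt2, were among the first 9 of wild type as well.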

How the data were processed

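ATAC-seq was done on haematopoietic progenitors of mice 21 days old. The submitters' processing notes name Bowtie2, MACS2, mm10 and GRCm38, without versions; of thresholds, read shifting and filters nothing is said there. Per the labels, the pair of samples in a group point to the same peak list, so peaks stand per group and depth per sample is unknown. For each peak the authors deposited a −log10 p-value and a −log10 q-value, a fold enrichment (a ratio) and a score from 413 to 1000, the meaning of which no source used here states. These values are the authors' and were used only to rank, describe or filter peaks within 1 list.

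Peaks of chromosomes 1 to 19 (3347 Flt3-ITD and 2973 wild-type peaks elsewhere were left out) were merged where they overlapped by at least 1 bp. A peak's rank is by −log10 p, tied peaks sharing the best rank. Genes came from the RefSeq table of GRCm38.p6, which gives no strand, as the nearest protein-coding span within 100 kb; starts came from the RefSeq promoter table, listed for 79.6% of the protein-coding genes and for none on chromosome 18. Of 411 entries in 20 gene lists, 399 were matched. Peak sequence was not read, as no genome was used. With 1 list per group there was no test. Members, lists and rules were chosen with earlier results of these data known. Genes were named by rank: the 12 best strong regions per direction, the 8 genes with the most regions in 1 direction, up to 4 members per gene list and direction, the 8 largest rank differences per direction, the 5 highest shared regions and Flt3, printed from the top; promoters and genes named otherwise are said to be chosen after their values were seen. Merging was run on 30000 simulated regions that were separate from the start, with at most 1 peak per list and slightly moved ends. It returned the simulated count of each state, as this setting was bound to give. Joining several peaks of a list into 1 region was not tested. Python 3.11.15, pandas 2.3.3, numpy 2.4.6 and matplotlib 3.10.9 were used.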

Additional observations from a re-analysis of the deposited data

How the results depend on the processing

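No paired analysis was possible because each group has 1 peak list for both samples, and for the same reason no sample could be left out. Equal numbers of peaks, a −log10 q of at least 10, an overlap of 50% and merging within 500 bp kept the counts of gained, lost and shared regions within 1.5 times the reported ones, with more gained than lost in each, and so did 20 kb in place of 100 kb for the genes. The counts that moved further were these. The top 40000 peaks of each list gave 4418 gained, 3541 lost and 30731 shared regions, and the top 20000 gave 2256, 1852 and 15945. The 81961 top peaks of each list, an alternative chosen after seeing the data, gave 10115 gained and 7843 lost. The wild type of set 2 in place of that of set 1 gave 10567 gained and 19215 lost, and 40 strong gained and 121 strong lost, the strong counts being chosen after seeing the data; 9 of the 12 leading gained regions had a peak there and 3 had none. Strong regions numbered 6 gained and 4 lost with the top 10% of a list, 2816 and 595 with the top 50%, and 74 gained with equal numbers. Only the wild-type list turned the balance of gained and lost; the cause was not tested. A missing peak is not a measured absence, and unknown depth limits the lower ranks most.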
